A study of Arabidopsis thaliana with 14 samples.

Results

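The comparison set the 1 array of laser-dissected shoot meristems labelled arrested against the 2 arrays of whole inflorescences labelled arrested, to ask where the transcripts of the arrested state lay, in the meristem or in the surrounding buds. The members were taken by array title, so 3 of the 14 arrays of the series entered this contrast, and all 21195 loci that are not control probe sets were compared. The arrested inflorescence array coded r1 is called replicate 1 here and the array coded g3 replicate 2. The remaining arrays served as a reference for the difference between the tissues in plants whose meristems were active.

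Proliferative arrest is the stage at which the inflorescence meristems of a fertile Arabidopsis plant stop making new flowers after a run of fruits has been set. The meristem itself is a small dome of stem cells and organ founder cells, kept by the WUS-CLV3 feedback loop and by the homeobox gene STM. A whole inflorescence holds that dome together with a cluster of buds, stems and pedicels, and so contains green, vascular and anther tissue as well. Removal of fruits lets arrested meristems start again, and male-sterile plants, which set no seed, go on flowering for longer.

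All 3 arrested arrays came from fertile plants whose genotype is labelled ms1-1 co-segregant, which the protocol describes as the accession Landsberg erecta. Whole inflorescences held buds up to about floral stage 10 from primary and secondary branches, and 3 to 10 plants were pooled for an array. The meristem region was excised with a laser in 10 µm slices of fixed, paraffin-embedded inflorescences of at least 20 plants. Meristem RNA was amplified before labelling and inflorescence RNA was not, so tissue and amplification cannot be told apart at any single locus. The active reference consisted, in each tissue, of fertile growing plants of the same label, of sterile growing plants homozygous for ms1-1, and of arrested fertile plants sampled 48 h after fruit removal. It held 3 meristem arrays and 4 inflorescence arrays, since the 48 h inflorescences had 2. The protocol speaks of leaving 3 to 4 fruits on the plants and the series text of removing all of them. The labels do not say whether replicate arrays came from separate plants, so the p-values rest on array-to-array spread alone.

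Across all loci the arrested meristem array correlated with the arrested inflorescence arrays at r = 0.758 and 0.711, and with the 3 active meristem arrays at 0.904 to 0.923 (descriptions across loci, which are not independent). The 2 arrested inflorescence arrays correlated at 0.947, below the replicate pairs at 6 h, 24 h and 48 h after fruit removal (0.975 to 0.991). They lay at least 4-fold apart at 312 loci (1.47%), against 11 loci (0.0519%) for the 6 h pair. The arrested pair joins an r-coded with a g-coded array. The inflorescence arrays after fruit removal are all coded g, and the growing ones are coded r. What the codes mean is not stated, so code and replicate cannot be told apart in the arrested pair. The meristem arrays were flatter, with standard deviations over loci of 1.61 to 1.66 on the log2 scale against 1.78 to 2.01 in inflorescences. The 5′ probe set of the GAPDH control transcript read 4.19 to 5.72 in meristems and 8.71 to 11.09 in inflorescences, and its 2 ranges did not overlap. The middle GAPDH set was also lower in meristems, at 7.65 to 7.87 against 9.82 to 12.24. Its difference from the 5′ set overlapped, at 1.93 to 3.68 in meristems and 0.33 to 2.33 in inflorescences. The 3′ minus 5′ difference was higher in meristems for ubiquitin (1.11 to 1.33 against 0.24 to 0.94). For actin it went the other way, with overlap (-2.89 to -0.29 against -1.52 to 0.98). The bacterial bioB control, which is spiked into the labelled sample, read 10.82 on the arrested meristem array, 9.0 to 9.59 on the other meristem arrays and 7.07 to 8.47 in inflorescences. The part of these array differences in the results below was not tested.

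**Figure D1:**
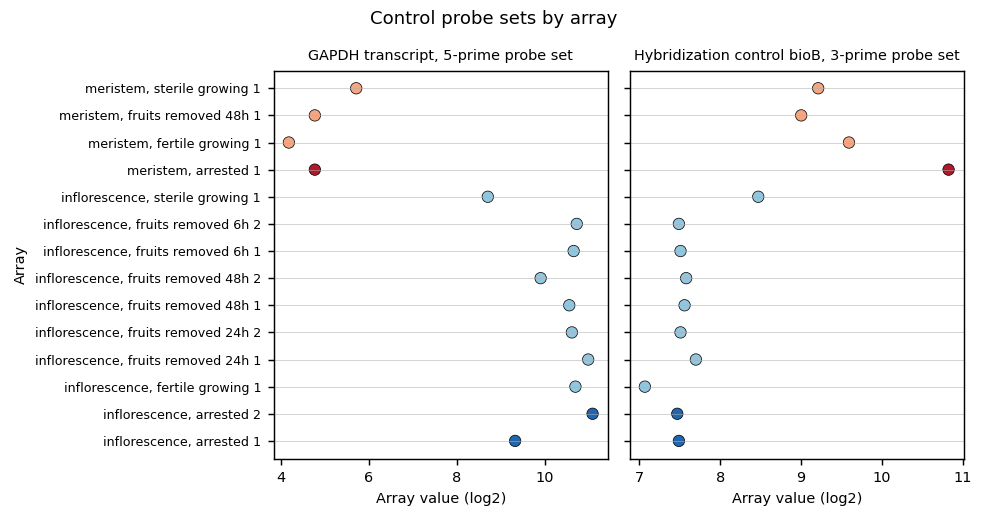
Values of 2 control probe sets on each of the 14 arrays (log2, horizontal axes; 1 point per array, arrested arrays in dark colours). The GAPDH 5′ probe set lay between 4.19 and 5.72 in the 4 meristem arrays and from 8.71 upward in inflorescences, and the bioB control was highest, at 10.82, on the arrested meristem array.

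The arrested meristem carried more transcript of part of the stem cell and boundary genes and of genes of dividing cells. The arrested whole inflorescences carried more transcript of photosynthesis, of petal and stamen identity, and of part of the sugar transport, late pollen and senescence genes, as well as the flowering signal FT. A locus was called when its adjusted p from limma, with Benjamini-Hochberg adjustment over all loci, was under 0.05 and the meristem array lay at least 4-fold (2 on the log2 scale) from each arrested inflorescence array in the same direction. By this rule 675 loci (3.18%) were higher in the meristem and 970 (4.58%) were lower, 1645 in all or 7.76% of the loci tested. The adjusted p alone passed 11144 loci (52.6%). The median difference over all loci was 0.40 on the log2 scale, or 0.15 after quantile normalization and 0.30 after centring the arrays on their medians, and list medians below are read against these values. Because each sample is a mixture of cells, fewer cells of a type and less RNA per cell cannot be told apart. The spread behind the test came from the 4 replicate pairs of inflorescences, and the lone meristem array was assumed to vary like them. All of these pairs except the arrested one lay within the g code.

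The largest difference in favour of the meristem among loci with a signal in both tissues was that of iqd21, a member of the IQ-domain family of calmodulin-binding proteins. It read 11.46 in the arrested meristem and 5.81 and 6.22 in the arrested inflorescences, 37.8-fold above the nearer of them (difference 5.45 ± 0.25 SE, adjusted p = 7.3e-05). Within its own array this value stood at the 99.2 percentile, against the 26.9 and 31.1 percentiles in the inflorescences. The cold- and drought-induced dehydrin LTI30 read 12.07 against 7.39 and 7.11 (4.82 ± 0.30, adjusted p = 0.00011). COR27, a cold-regulated gene that acts with the circadian clock, read 11.41 against 6.93 and 5.8 (5.04 ± 0.54, adjusted p = 0.00047). JMJD5, a JmjC-domain protein also tied to the clock, read 11.62 against 7.09 and 6.62. For all of these genes the meristem value lay well above both inflorescence values, which the rule for a call requires. LSH1, a member of the ALOG family, read 10.5 against 6.3 and 6.16 (4.27 ± 0.21, adjusted p = 8.3e-05). RPA70B, a subunit of the single-strand DNA-binding complex of replication, read 9.9 against 5.81 and 5.66, and HB32, a zinc finger homeodomain protein, 10.71 against 6.79 and 6.24. Of the 20 highest loci, 3 were listed at 0 on both arrested inflorescence arrays and carry no fold. They were AT2G15190 and AT2G25040, both annotated as pseudogenes, and AT1G23510, at 5.13, 3.87 and 4.74 in the meristem. The remaining loci of the 20 were HSFA6B, a heat shock transcription factor, GSTZ2, TLP8, AT2G11240, AT4G34400, AT5G59110, AT5G02540, AT5G14690, LOG4 and CLV3.

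Among 33 regulators of the shoot meristem and its boundaries, 6 were higher in the arrested meristem, none was lower, and 27 were not called. The median difference of this list was 0.92 (0.74 after quantile normalization), with single members between -1.66 and 3.91. CLV3, the secreted peptide that marks the stem cells, read 9.26 in the meristem and 5.38 and 5.32 in the inflorescences (3.91 ± 0.37, adjusted p = 0.00034). The meristem value lay far above both inflorescence values, at the 83.3 percentile of its array against 18.6 and 14.1. TFL1, which keeps the inflorescence meristem from turning into a flower, read 12.46 against 9.02 and 8.53 (3.69 ± 0.26, adjusted p = 0.00014). The boundary genes CUC1 (10.18 against 7.43 and 6.65) and CUC3 (9.1 against 6.05 and 4.55) were higher by 3.14 ± 0.36 and 3.80 ± 0.54, with adjusted p of 0.00062 and 0.0014. STM, which keeps cells undifferentiated, read 11.41 against 9.21 and 8.76 (2.42 ± 0.25, adjusted p = 0.00045). All 3 active meristem arrays of STM were close to that value, and its difference between arrested and active meristems was 0.08.

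WUS, the homeobox gene of the organizing centre, was also called higher in the arrested meristem, at 7.35 against 4.97 and 4.03 (2.85 ± 0.43, adjusted p = 0.0017). Both tissues were below their active arrays, which read 8.09 to 8.61 in meristems and 5.94 to 7.79 in inflorescences. WUS fell in arrested inflorescences by 2.26 on the log2 scale (adjusted p = 0.0016), while the meristem difference of -0.95 did not pass (adjusted p = 0.19). The 6 called members, CLV3, TFL1, CUC1, CUC3, STM and WUS, were thus at a higher level on the meristem array. Over the list of 33, 24 differences were positive and 9 negative. CLV1 and HAM1 were among the negative ones, by less than the fold limit. The call of WUS between the arrested tissues was lost under quantile normalization, and its fall in inflorescences, the 1 call of this list there, was lost without replicate 2. PUCHI, an AP2-domain gene of bud initiation, lay just outside the fold limit, at 7.7 against 5.74 and 5.26.

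**Figure D2:**
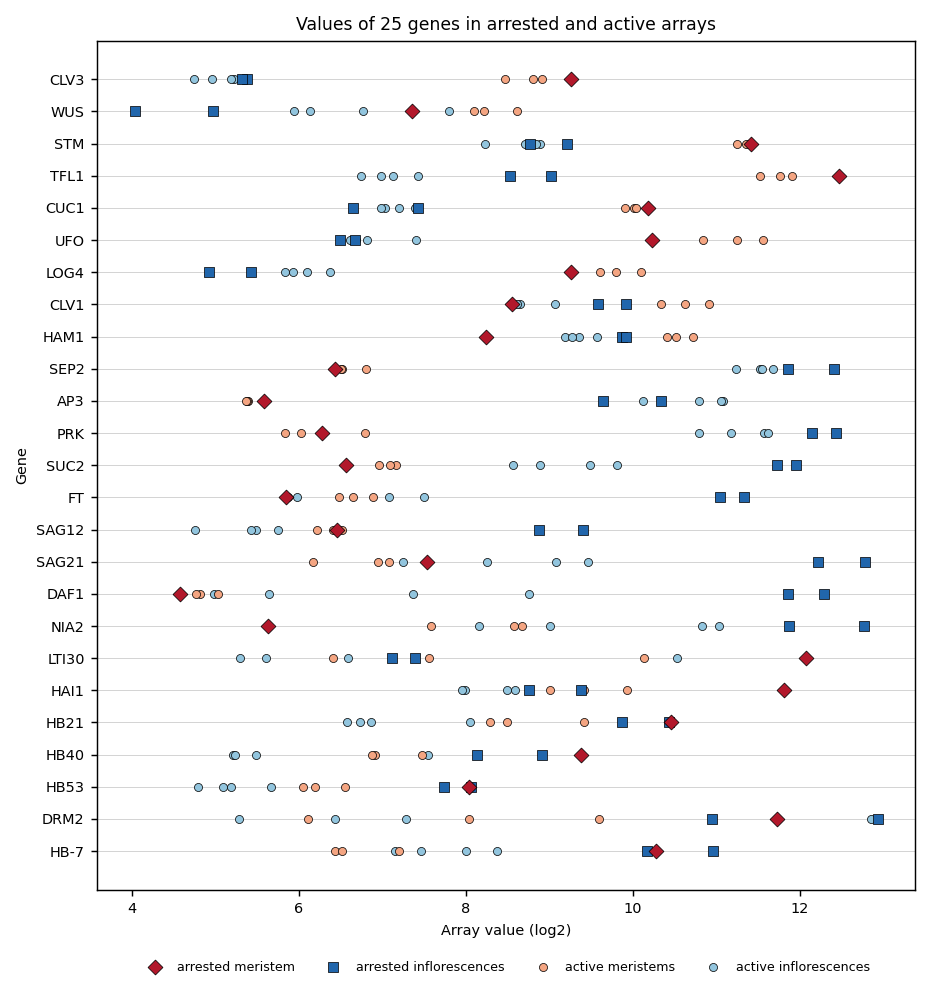
Array values (log2, horizontal axis) of named genes, 1 row per gene, with the arrested meristem as a diamond, the 2 arrested inflorescence arrays as squares, and the active meristem and inflorescence arrays as small circles. CLV3, STM and TFL1 kept a high meristem value in arrest, FT, SAG12 and DAF1 were highest on the 2 arrested inflorescence arrays, and HB21 and HB53 were above the active arrays in both arrested tissues.

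Part of the organ identity genes separated the tissues in the other direction. Of 13 floral meristem and organ identity genes, 6 were lower in the arrested meristem, 1 was higher and 6 were not called. The list median was -0.96, with 6 positive and 7 negative differences. SEP2, a cofactor of the floral MADS-box complexes, read 6.43 in the meristem against 12.4 and 11.85 (-5.70 ± 0.28, adjusted p = 8.3e-05). SEP1 read 5.65 against 10.8 and 10.3, and the petal and stamen gene AP3 read 5.58 against 10.34 and 9.64 (-4.41 ± 0.30, adjusted p = 0.00013). SEP3, PI and AP1 were lower as well, at 6.37, 6.65 and 7.5 in the meristem (chosen after the values were seen). The 1 higher call was UFO, an F-box gene active inside young floral meristems, which read 10.23 against 6.67 and 6.49 (3.65 ± 0.21, adjusted p = 8.9e-05). In the active arrays the same list gave 7 lower members and 1 higher. Among 11 carpel and ovule genes only the ovule homeobox gene BEL1 was called, at 5.0 against 9.42 and 9.25 (-4.33 ± 0.20).

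The 27 nuclear photosynthesis genes had the lowest median of the 30 lists, at -3.34 (-2.78 after quantile normalization), and 25 of them were lower in the arrested meristem. PRK, an enzyme of the Calvin cycle, read 6.28 against 12.43 and 12.14 (-6.00 ± 0.33, adjusted p = 8.5e-05). GAPA, the plastid glyceraldehyde-3-phosphate dehydrogenase, read 8.14 against 13.16 and 13.27 (-5.08 ± 0.32), and the photosystem I subunit PSAG 9.57 against 13.31 and 13.41. The values of the green tissue genes did not overlap between the arrested tissues in any of these, which follows from the call rule. The plastid enzymes FBA2 and GAPA-2 and the proteins PSBQ-2 and PIFI were among the 20 lowest loci of the whole array, at 6.38, 6.45, 6.37 and 6.02 in the meristem. In the active arrays 26 of the 27 were lower in meristems, with a median of -3.21.

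Phloem, epidermis and defence chemistry genes followed the same direction in part of their lists. Of 22 vascular and secondary wall genes 4 were lower in the meristem, among them SUC2, the sucrose loader of companion cells, at 6.56 against 11.95 and 11.72 (-5.28 ± 0.49, adjusted p = 0.0003). The median of that list was nevertheless 0.54, so its called members were not typical of it. Of 26 epidermis, cutin and wax genes 5 were lower (8 under quantile normalization, 9 without replicate 1), including the lipid transfer proteins LTP1 (8.41 against 12.5 and 13.05) and LTP2 (9.64 against 12.61 and 13.42). In the active arrays 13 of the 26 were lower in meristems, with a median of -1.99 against -1.08 in arrest. The tissue difference of 5 of the 26 was called more positive in arrest. In the glucosinolate list 4 of 10 were lower, with CYP83A1 at 5.99 against 12.99 and 11.29 and its regulator MYB28 at 5.73 against 10.58 and 9.3. LOX2, a plastid lipoxygenase of jasmonate synthesis, read 5.72 against 11.98 and 11.44 (-5.99 ± 0.31, adjusted p = 8.3e-05). Only 2 of 24 jasmonate genes were called, both lower, a share near the 7.76% called over all loci. The median of the jasmonate list was -0.25, with 9 positive and 15 negative differences, below the 0.40 of all loci. After quantile normalization it was -0.7, against 0.15 for all loci. In the active arrays 5 of the 24 were lower in meristems and none higher, with a median of -0.72.

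The lowest locus relative to both inflorescence arrays was DAF1, an F-box gene of the pollen germline programme. It read 4.58 in the arrested meristem and 11.85 and 12.28 in the arrested inflorescences (-7.49 ± 0.50, adjusted p = 0.00012). The meristem value stood at the 2.2 percentile of its array, near its lower end, so the size of the difference there is uncertain, and the inflorescence values at the 98.6 and 98.9 percentiles. AGP6, an arabinogalactan protein of pollen, read 5.74 against 11.99 and 12.39 (-6.45 ± 0.68, adjusted p = 0.00047). Of 10 late pollen genes 3 were lower, namely ADF10 (6.91 against 9.6 and 10.28), ACT4 (6.53 against 9.27 and 9.8) and ACT11 (5.87 against 8.05 and 8.26), all of the actin cytoskeleton, and the list median was -1.85. Without replicate 1 the late pollen count was 6 and the median -2.27, and without replicate 2 they were 3 and -1.20. In the active arrays none of the 10 was called by limma and the median was -0.30. The nitrate reductase NIA2 read 5.63 against 11.87 and 12.77 (-6.69 ± 0.35, adjusted p = 8.3e-05), and the blue copper protein BCB and the metallothionein MT1C read 5.24 and 5.25 against values of 11.28 and above. AT1G54040, the epithiospecifier protein of glucosinolate breakdown, and DES1, a cysteine desulfhydrase, read 6.05 and 5.01 against 11.08 and above. The remaining loci of the 20 lowest were AT5G62750, AT3G01240, AT5G39880, AT3G28750, AT3G07820, AT4G19430, AT2G47050, AT4G09890 and AT5G45880.

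Genes of dividing cells were higher in the arrested meristem than in the arrested inflorescences. Of 25 genes of mitosis and cytokinesis 14 were higher and none lower, and all 25 had a positive difference, with a median of 2.35. TOPII, the topoisomerase that untangles chromosomes, read 10.78 against 7.57 and 7.12 (3.44 ± 0.36, adjusted p = 0.00048). The histone H3 kinase AUR3 read 9.64 against 6.66 and 6.24 (3.19 ± 0.29), and the mitotic kinase CDKB2;1 read 9.3 against 6.65 and 6.72. For each of these 3 genes the meristem array stood clear of both inflorescence arrays, as the call rule requires. Of 21 replication genes 9 were higher (6 after quantile normalization), with a median of 2.1. PCNA1, the sliding clamp of DNA polymerase, read 9.92 against 6.78 and 6.34 (3.36 ± 0.27, adjusted p = 0.0002), and PRL, the MCM7 subunit of the replicative helicase, 10.34 against 7.29 and 6.55. Among 18 core histones 2 were higher (4 without replicate 1), of which HTA12 read 10.75 against 8.54 and 8.08. The 17 G1 cyclins and inhibitors had a median of 0.5, near the 0.40 of all loci, with 11 positive and 6 negative differences. Of these genes 2 were called, both lower in the meristem, where 4.58% of all loci were called lower. These were the inhibitors SMR1 (7.01 against 9.51 and 9.34) and KRP1 (5.61 against 7.93 and 7.83).

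Part of the division genes fell in arrest within each tissue. The cyclin CYCB1;1, a marker of cells entering mitosis (chosen after the values were seen), read 8.03 in the arrested meristem and 9.98, 10.33 and 10.22 in active meristems. It fell by 2.15 on the log2 scale in meristems (adjusted p = 0.012). In inflorescences CYCB1;1 fell by 2.86. Within inflorescences 16 of the 25 mitosis genes and 10 of the 21 replication genes fell in arrest, against 2 and 1 within meristems, where the list medians were -1.17 and -0.87. The interaction, that is the tissue difference in arrest minus the tissue difference in active plants, was called for TOPII alone in the mitosis list (2.52 ± 0.43, adjusted p = 0.016) and for none of the replication genes by limma. Without the sterile arrays the inflorescence counts were 11 and 6, and without arrested replicate 2 they were 16 and 6. Under quantile normalization 4 mitosis genes fell in meristems. Meiosis genes, which act in anther and ovule mother cells, were also higher in the meristem for 3 of 16 members (5 without replicate 1 and 6 without replicate 2), of which ASY1, a chromosome axis protein, read 8.8 against 5.26 and 5.27 (3.54 ± 0.19, adjusted p = 8.5e-05). In the active arrays 5 of the 16 were higher in meristems, with a median of 1.46 against 1.82 in arrest.

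Of 19 flowering time genes 3 were higher in the arrested meristem and 1 was lower (6 and 2 without replicate 1). FT, the mobile protein that leaf phloem sends to the meristem, was the lower one, at 5.84 against 11.04 and 11.33 (-5.34 ± 0.31, adjusted p = 9.6e-05). Its partner in the meristem, the bZIP factor FD, went the other way at 7.69 against 5.21 and 4.72. AGL24, a MADS-box promoter of flowering, read 9.23 against 6.31 and 6.21. MFT, a relative of FT known from dormant seeds, read 8.16 against 5.24 and 5.15 (2.96 ± 0.21, adjusted p = 0.00014). FT was thus high on both arrested inflorescence arrays, while MFT was high in the meristem and also above the 3 active meristem arrays, which read 6.0 to 6.09 (rise of 2.12, adjusted p = 0.0037).

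Few hormone genes were called, and those called went in both directions. Over all loci 3.18% were called higher and 4.58% lower, so these counts are not read as a result about hormone genes. The list medians were -0.21 for cytokinin, 0.14 for auxin, 0.91 for gibberellin and -0.49 for abscisic acid. In the cytokinin list of 26 genes, LOG4, an enzyme that releases active cytokinin in the upper meristem layers, read 9.26 against 5.42 and 4.92 (4.09 ± 0.31, adjusted p = 0.00016), whereas the receptor HK3 (7.01 against 9.11 and 9.44) and the response regulator ARR4 (8.19 against 10.42 and 10.23) were lower. ARR6 and CKX5 were the other lower members, and the call of ARR4 was lost under quantile normalization. In the auxin list of 34 genes, TAA1, which starts auxin synthesis from tryptophan, read 10.45 against 6.92 and 5.34 (4.32 ± 0.55, adjusted p = 0.00092), and the response gene IAA4 read 5.93 against 8.7 and 9.31. That list held 3 higher and 3 lower members, and 9 lower without replicate 1. RGL3, a DELLA repressor of gibberellin response, was the 1 called gene of 17 in its list, at 9.65 against 5.86 and 6.0 (3.72 ± 0.26). Of 30 abscisic acid genes 2 were higher, LTI30 and the phosphatase HAI1 at 11.81 against 9.38 and 8.75 (2.75 ± 0.34, adjusted p = 0.00085). The 2 lower members were CYP707A2, which breaks abscisic acid down, and ERD14 (both chosen after the values were seen). Without replicate 1 the abscisic acid counts were 4 and 5, and without replicate 2 they were 2 and 6.

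Sugar and senescence genes were lower in the meristem where called. SWEET11, a sucrose exporter of phloem parenchyma, read 6.67 against 11.06 and 12.1 (-4.91 ± 0.38), SWEET1 7.14 against 10.97 and 10.97, and the hexose transporter STP13 6.28 against 9.07 and 9.54. In all, 6 of 20 sugar genes were lower and none higher. Of 23 senescence and chlorophyll breakdown genes 7 were lower, with a list median of -0.93. SAG21, a stress-induced mitochondrial LEA protein, read 7.53 against 12.21 and 12.78 (-4.96 ± 0.29, adjusted p = 9.6e-05). SAG12, a cysteine protease widely used as a marker of senescence, read 6.45 against 8.87 and 9.4 (-2.69 ± 0.36, adjusted p = 0.0011). SAG12 in the arrested meristem lay within the range of the active meristems, 6.21 to 6.51, with a meristem difference of 0.07, whereas it rose by 3.69 in arrested inflorescences. PPH, which removes phytol from chlorophyll, and the NAC factor VNI2 were lower in the meristem as well, at 6.94 and 8.65. The NAC factor NAP, chosen after the values were seen, lay just inside the fold limit, at 9.79 against 11.81 and 12.12.

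The homeobox genes of bud dormancy were above their active levels in both arrested tissues. HB21 and its relatives HB40 and HB53 are homeobox genes that act downstream of the branching repressor BRC1 in dormant axillary buds. HB21 read 10.45 in the arrested meristem and 9.87 and 10.43 in the arrested inflorescences (0.30 ± 0.29, adjusted p = 0.41). HB53 read 8.04 against 7.73 and 8.06 (0.14 ± 0.25, adjusted p = 0.64), and HB40 read 9.38 against 8.13 and 8.91. A p above the threshold does not show that the tissues were equal. The meristem value of HB53 lay within the span of the inflorescence pair, and those of HB21 and HB40 above it. All 3 were above every active array of either tissue. HB53 read 6.05 to 6.55 in active meristems and 4.79 to 5.67 in active inflorescences. HB40 read 6.87 to 7.47 in active meristems. In active inflorescences HB40 read 7.55 on the fertile growing array, close to the 8.13 of arrested replicate 1, and 5.21 to 5.48 on the others. In inflorescences the 3 genes rose by 3.01, 2.48 and 2.65 (HB21, HB40, HB53), with adjusted p of 9.6e-05, 0.00032 and 8.3e-05. In meristems HB40 rose by 2.30 (adjusted p = 0.01), and HB21 and HB53 differed by 1.72 and 1.78, with adjusted p of 0.016 and 0.0096 but under the 4-fold limit.

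The rest of that list of 26 was uneven between the arrested inflorescence arrays. Replicate 1 and replicate 2 differed most for genes of low sugar: SEN1 read 7.18 and 13.37 and ASN1, the dark-inducible asparagine synthetase, 7.03 and 11.85. The arrested meristem lay between them for ASN1, at 10.16, and near replicate 1 for SEN1, at 7.6. The list mean was 8.19 in replicate 1, 10.32 in replicate 2 and 8.39 in the arrested meristem, and the fertile growing inflorescence array, at 8.92, was above replicate 1. Between the arrested tissues 3 members were lower in the meristem, DIN2, STP1 and DRM1, and the calls of STP1 and DRM1 were lost under quantile normalization. The list median of -0.33 became -1.63 without replicate 1, with 9 lower members, and 0.47 without replicate 2, with 3 lower and 1 higher. In arrested inflorescences 9 of the 26 bud dormancy and low-sugar response genes rose, with a median of 1.61, but this became 16 without replicate 1 (median 2.78) and 5, with 1 that fell, without replicate 2 (median -0.03). DRM2, a dormancy-associated protein, read 11.72 in the arrested meristem against 10.94 and 12.93, and in active meristems 9.59, 8.04 and 6.11 (rise of 3.81 in meristems, adjusted p = 0.024). Active inflorescences of DRM2 ranged from 5.28 to 12.85, and the highest, the fertile growing array, was above arrested replicate 1. TPS8, a trehalose phosphate synthase family member of low-sugar tissue, read 10.63 against 9.54 and 11.72.

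Few genes of the other lists were called. The clock-regulated RNA-binding protein GRP7 read 8.22 against 12.9 and 12.17 and was 1 of 2 lower members among 15 clock genes, of which none was higher (3 without replicate 1). In the wounding and oxidative stress list of 15, the cold regulator CBF1 was higher, a call lost under both quantile normalization and centring, and CAT2, the photorespiratory catalase, was lower at 9.03 against 12.27 and 11.89, with 2 lower members in all and 5 without replicate 1. The ribosomal list of 15 held 1 call, RPL5B, lost under quantile normalization, and its median of -0.33 turned to 0.48 there. The stomata and trichome list held 1 lower member, TTG1. No member of the flavonoid (12), heat shock (12) or lateral organ polarity (11) lists was called by limma with the fold limit, while 3, 7 and 4 of them had an unadjusted p under the threshold without it.

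**Figure D3:**
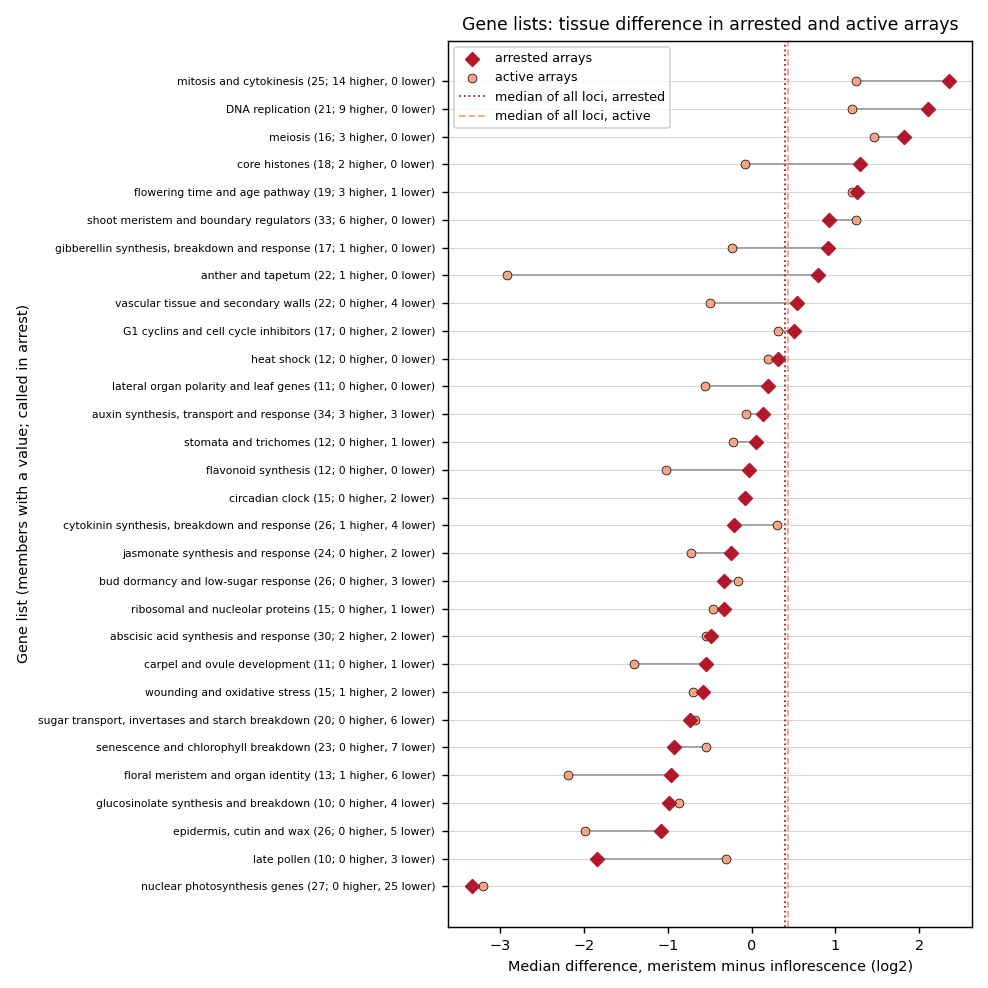
Median difference between meristem and inflorescence over the members of 30 gene lists (log2, horizontal axis), with diamonds for arrested and circles for active arrays and vertical lines at the median of all loci. Mitosis (2.35) and replication (2.1) lay highest in arrest, photosynthesis lowest (-3.34), and the anther and tapetum list moved from -2.92 in active to 0.79 in arrested arrays.

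The same contrast between tissues was then taken in active plants, which share no array with the arrested comparison. There 392 loci (1.85%) were higher and 768 (3.62%) lower in meristems, 5.47% in all. Of the loci higher in the arrested meristem 186 were also higher in active meristems, 27.6% of the 675 and 47.4% of the 392. Of those lower, 404 were shared, 41.6% of the 970 and 52.6% of the 768. Both tissue differences correlated at r = 0.736 across loci, a description only, since all loci share the amplification of the meristem arrays. Among stem cell and identity genes, CLV3 read 8.47 to 8.91 in active meristems, LOG4 9.6 to 10.1 and UFO 10.84 to 11.55. Of the 33 meristem and boundary regulators 10 were higher in active meristems, with a list median of 1.25, against 6 and 0.92 in arrest. The tissue difference of CLV1 and HAM1 was not shared, with called interactions of -3.13 and -2.88. Only 2 loci were called higher in the arrested meristem and lower in active meristems, COR413IM1, a cold-regulated protein of the chloroplast envelope (11.62 against 9.31 and 8.6 in arrest), and AT2G31035 (3.24 against 0.63 and 0.87), both named after their values were seen. In arrest AT2G31035 lay below the lower quartile of each array, 6.33 in the meristem and 5.7 and 5.9 in inflorescences, so the size of its difference is uncertain. No locus was called in the reverse pattern.

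**Figure D4:**
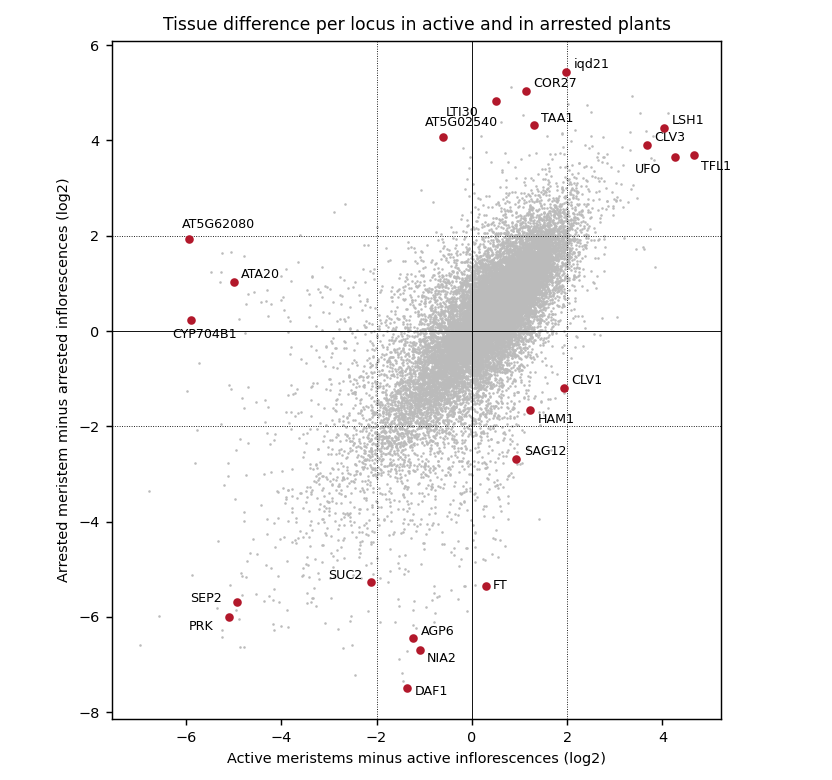
Difference between meristem and inflorescence at each of the 21195 loci in active plants (horizontal axis) and in arrested plants (vertical axis), both log2, with dotted lines at the 4-fold limit and named genes in red. CLV3 and SEP2 lay near the diagonal, whereas LTI30, FT and DAF1 differed mainly in arrest and AT5G62080 and CYP704B1 mainly in active plants.

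The tissue difference itself was tested for a change between arrest and activity. It was called at 691 loci (3.26%), with 285 (1.34%) more positive and 406 (1.92%) more negative in arrest. The most positive were genes whose transcripts were abundant in active inflorescences and fell in arrested inflorescences. CYP704B1, a hydroxylase of the sporopollenin pathway in the tapetum, the nurse layer of the anther, read 4.0 in the arrested meristem and 3.72 and 3.83 in arrested inflorescences. In active inflorescences it read 9.63 to 12.0 (interaction 6.13 ± 0.60, adjusted p = 0.0022). ATA20, an anther gene, read 7.35 against 6.52 and 6.12 in arrest and 11.56 to 14.13 in active inflorescences (6.02 ± 0.40, adjusted p = 0.0013). AT5G62080 gave the largest value, 7.88 ± 0.76 (adjusted p = 0.0021), and TSM1, a tapetum-specific methyltransferase, gave 5.64, although in sterile inflorescences it read 5.79. Of 22 anther and tapetum genes 15 had a more positive tissue difference in arrest, and the same number fell within inflorescences, where the list median was -3.64. Within meristems none was called by limma, 4 had an unadjusted p under the threshold and the median was -0.20. The count of 15 was the same without either arrested inflorescence array, without the sterile plants and without the 48 h arrays. The tapetum genes, 12 of which were lower in active meristems than in active inflorescences, held 1 call between the arrested tissues, LAP6, which was higher in the meristem at 9.67 against 7.49 and 7.47 (chosen after the values were seen).

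The most negative interactions were mostly those of genes that rose in arrested inflorescences and not in the arrested meristem. DAF1 read 4.98 to 8.75 in active inflorescences and rose by 5.84 in arrest, while its meristem difference was -0.29 (interaction -6.13 ± 0.59, adjusted p = 0.002). FT read 5.87 to 7.5 in active inflorescences and rose by 4.81 (adjusted p = 5e-05), whereas the meristem difference was -0.83 (adjusted p = 0.13, interaction -5.64 ± 0.37, adjusted p = 0.0013). SAG12 gave -3.62 ± 0.43 (adjusted p = 0.0038) and SAG21 -3.44 (adjusted p = 0.0024). The serine carboxypeptidase-like gene scpl38 gave -5.39 and the cell wall invertase cwINV1 -5.36 (adjusted p = 0.03). Sugar transport shared this pattern for SUC2 (-3.16, adjusted p = 0.02), STP13 (-3.03, adjusted p = 0.0022) and SWEET11 (-2.69, adjusted p = 0.015). The calls of cwINV1 and SWEET11 were lost without the sterile arrays, and that of cwINV1 also without either 48 h inflorescence array.

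A further set of negative interactions came from genes that were lower in the arrested meristem than in active meristems. CLV1, the receptor kinase that perceives CLV3, read 8.55 in the arrested meristem and 10.62, 10.91 and 10.33 in active meristems, while inflorescences read 9.58 and 9.91 in arrest and 8.54 to 9.06 in activity. It fell by 2.07 on the log2 scale in the arrested meristem (adjusted p = 0.0084) and its interaction was -3.13 ± 0.32 (adjusted p = 0.0025). HAM1, a GRAS factor that works with WUS, read 8.24 against 10.51, 10.72 and 10.41 in active meristems (meristem difference -2.31, adjusted p = 0.0036, interaction -2.88 ± 0.26, adjusted p = 0.0018). Both were therefore lower in the arrested meristem than in the arrested inflorescences, by less than the fold limit (-1.20 and -1.66), with CLV1 and HAM1 above the inflorescences in active plants. AIL7 and ULT1, an AP2-domain factor and a regulator of meristem size, fell in the meristem by 2.19 and 2.01 on the log2 scale (adjusted p = 0.028 and 0.015). These 4 were the members of the meristem list of 33 that fell in meristem arrest, and the count was 1 without the sterile plants. CLV3 did not follow them, since its arrested value of 9.26 was above all 3 active meristems, and its interaction was 0.23.

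On the positive side LTI30 read 12.07 in the arrested meristem and 10.13, 6.41 and 7.56 in the fertile, sterile and 48 h active meristems. Its interaction of 4.30 ± 0.36 (adjusted p = 0.0017) was lost when the active meristems were treated as replicates of 1 group. The active inflorescence values had the same order, with the fertile array highest at 10.52. The interaction of iqd21 was 3.46 (adjusted p = 0.0017), since it rose by 2.09 in the arrested meristem (adjusted p = 0.006) over active values of 8.88 to 10.04. AT5G02540 owed its interaction of 4.69 to the inflorescences, where it fell by 3.85 on the log2 scale, the meristem difference being 0.83 (adjusted p = 0.2).

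Arrest was finally compared with activity inside each tissue, in contrasts that share no array. In inflorescences 597 loci (2.82%) rose and 391 (1.84%) fell in arrest, 4.66% in all. In meristems 123 (0.58%) rose and 88 (0.415%) fell, 0.996% in all, and the count of 211 became 351 under quantile normalization. A total of 49 loci rose in both tissues, 8.21% of the 597 and 39.8% of the 123, and 16 of the 391 and of the 88 fell in both. Across settings the shared rises numbered 33 to 72. Both arrest differences correlated at r = 0.369 across loci, as a description.

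The genes that rose in both tissues included HIPP22, a heavy-metal-associated isoprenylated protein. It read 11.05 in the arrested meristem and 11.48 and 11.87 in the arrested inflorescences, with active values of 6.04 to 7.84 and 6.17 to 8.83 (rises of 4.23 and 4.46, adjusted p = 0.0022 and 2.6e-05). HB-7 and HB-12, homeobox genes induced by abscisic acid and drought, read 10.27 and 9.82 in the arrested meristem and rose there by 3.55 and 2.95, and in inflorescences by 2.88 and 2.50. The linker histone variant HIS1-3, also drought-induced, rose by 3.33 in the meristem and 5.01 in inflorescences. NAP rose by 2.56 in the meristem (adjusted p = 0.014) and 3.75 in inflorescences, and the vacuolar processing enzyme GAMMA-VPE rose by 2.84 and 3.58. All genes of this paragraph were chosen after the values were seen. Of the 30 abscisic acid genes 5 rose in the meristem, HB-7, HB-12, LTI30, HAI1 and COR47, and 5 rose in inflorescences with 1 that fell. The senescence list was divided otherwise, with 8 of 23 rising in inflorescences (11 without replicate 1 and 5 without replicate 2) and 2 in the meristem.

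**Figure D5:**
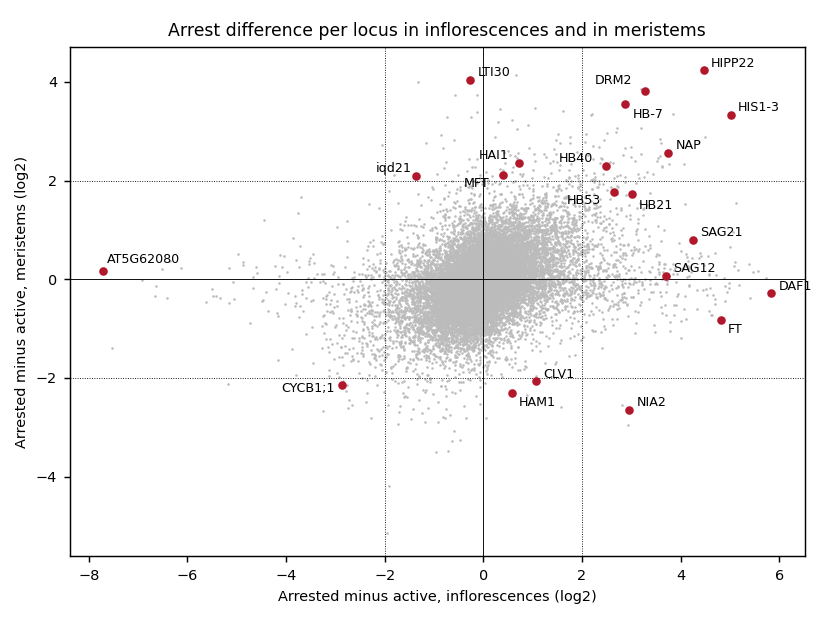
Arrested minus active at each of the 21195 loci in inflorescences (horizontal axis) and in meristems (vertical axis), both log2, with dotted lines at the 4-fold limit and named genes in red. HIPP22, HB-7 and HIS1-3 rose in both tissues, DAF1, FT, SAG12 and SAG21 in inflorescences, and LTI30 in the meristem, while NIA2 rose in inflorescences and fell in the meristem.

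Most loci that rose in arrested inflorescences showed little of that rise in the meristem. Over the 597, the meristem difference had a median of 0.25 and quartiles of -0.15 and 1.04, and 203 (34%) lay above the median of the arrested meristem array. Over the 391 that fell in inflorescences, the meristem difference had a median of -0.55 with quartiles of -1.18 and -0.05, and 158 (40.4%) lay above that median. Over all loci the meristem difference had a median of -0.07, and the array median divides the loci evenly. Both sets were chosen by their inflorescence difference, and a smaller difference in the meristem can follow from that choice alone. The part of the choice was not tested. Opposite calls were rare, for 2 loci rose in inflorescences and fell in the meristem, and none did the reverse. They were NIA2, at 5.63 in the arrested meristem and 7.58 to 8.67 in active meristems (meristem difference -2.64, adjusted p = 0.0082, inflorescence rise 2.96), and AT5G62750, at 1.05 against 3.5 to 4.43 (-2.96, adjusted p = 0.038). All of these AT5G62750 values lay below the lower quartiles of the meristem arrays, 6.33 to 6.46, so the size of its difference is uncertain. For NIA2 only the arrested value did.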

How the data were processed

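The values were the deposited log2 expression levels, 1 per locus and array, from Affymetrix arrays. The authors' normalization and probe summary are not given in the sources used here. The log2 scale was inferred from the values. Per the labels' protocols, inflorescence RNA was labelled directly (GeneAtlas 3′ IVT Express) and meristem RNA only after RiboAmp Plus amplification. Of 21253 rows, 58 control rows were left out. Symbols for 21097 loci came from RefSeq (TAIR10.1), in which 98 loci had no entry.

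One linear model with a mean for each of 10 groups of tissue and state was fitted to all 14 arrays with limma 3.58.1 under R 4.3.3 (lmFit, contrasts.fit, eBayes), and p-values were two-sided and adjusted over all 21195 loci. Comparisons other than that between the arrested tissues were called at an adjusted p under 0.05 and 4-fold between means. Values after ± are standard errors. Tables were made with Python 3.11.15 and pandas 2.3.3, and the fit was tested on simulated data. There every array, the meristem arrays included, was given the spread of the inflorescence pairs and no amplification difference. The simulation therefore could not test whether the lone meristem array varies like those pairs. No further normalization was applied and no value filter. The number of arrays limits the precision, and detection calls were not used.

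Named genes were the 20 called loci in each direction with the largest difference from the nearer arrested inflorescence array, the 10 called interactions in each direction with the largest size, up to 4 members of each of 30 gene lists with the lowest p between the arrested tissues, and the members of the meristem and bud dormancy lists. Of 653 written list members 582 had a row under the same name, 59 had no row and 12 carried another name. The members and lists were chosen with earlier results of these data known, and no list was tested. Sequences and positions were not used here.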

Additional observations from a re-analysis of the deposited data

Results flagged for a closer look

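These results are listed because the tissue difference itself differed between arrested and active plants, by the interaction term of the limma fit (adjusted p under 0.05 and at least 4-fold). In all, 285 loci had a more positive tissue difference in arrest and 406 a more negative one. Values below are interactions on the log2 scale, and no cause was tested.

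The positive values of genes that fell in arrested inflorescences were 7.88 for AT5G62080, 6.89 for AT1G66850, 6.72 for AT5G16920, 6.71 for AT5G07230, 6.5 for AT4G20420, 6.37 for sks18, 6.32 for AT1G33430, 6.13 for CYP704B1, 6.02 for ATA20, 5.64 for TSM1, 4.69 for AT5G02540, 3.02 for TAA1, 2.52 for TOPII, 2.5 for TDF1, a tapetum transcription factor, 2.28 for RPA70B and 2.1 for AT4G34400. The other positive values, of genes high in the arrested meristem, were 4.31 for AT2G15190, 4.3 for LTI30, 3.92 for COR27, 3.46 for iqd21, 2.75 for JMJD5 and 2.51 for AT5G14690. AT2G15190 was listed at 0 on both arrested inflorescence arrays and on 2 of 3 active meristem arrays, and its interaction, like that of LTI30, was lost with the active meristems as 1 group. AT4G34400 lost its interaction without arrested replicate 2, without either 48 h inflorescence array and without sterile plants.

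The most negative values were -6.13 for DAF1, -5.9 for AT5G62750, -5.78 for AT1G54070, -5.71 for AT5G39880, -5.64 for FT, -5.6 for NIA2, -5.39 for scpl38, -5.36 for AT3G07820, -5.36 for cwINV1, -5.34 for AT3G28750, -5.22 for AGP6, -4.93 for AT5G45880, -4.76 for AT3G01240, -4.17 for MT1C, -4.07 for AT2G47050 and -3.96 for BCB. Senescence and sugar genes gave -3.62 for SAG12, -3.44 for SAG21, -3.16 for SUC2, -3.03 for STP13, -2.69 for SWEET11 and -2.45 for VNI2. Meristem regulators gave -3.13 for CLV1 and -2.88 for HAM1. The remaining values were -3.45 for DES1, -2.94 for ACT4, -2.6 for STY2, -2.19 for AT4G09890, -2.14 for CAT2, -2.1 for PIFI and -2.07 for ACT11. ACT11 also read 8.55 to 8.70 in active meristems against 5.87 in the arrested one, and ACT11 lost its interaction without arrested replicate 2.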

How the results depend on the processing

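No named call between the arrested tissues and no called interaction of a named or listed gene changed direction under the alternatives tried. Keeping only loci whose mean lay above the median of all such means left 1029 calls between the arrested tissues (270 higher, 759 lower), 745 between active tissues, 298 interactions, 569 within inflorescences and 120 within meristems. Between the arrested tissues an 8-fold limit left 481 calls (92 higher, 389 lower), and no fold limit gave 11144. Leaving out one arrested inflorescence array gave 2230 to 2704 calls there (2704 without replicate 1), since the fold limit then had 1 array to meet. The left-out arrays, those at 48 h included, gave 1135 to 1194 calls in active tissues, 647 to 1049 interactions (1049 without replicate 1), 984 to 1292 within inflorescences and 240 in each case within meristems. Under quantile normalization 351 were called within meristems.

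The share of calls that were higher in the meristem was 41% between the arrested tissues, 30% after quantile normalization and 34.6% after centring. In active tissues it was 33.8%, 19.4% and 24.8%. Of 115 named calls between the arrested tissues, 108 were kept under quantile normalization and 114 after centring. The 8-fold limit passed 74 of them. Of 78 interactions counted among genes named or in lists, quantile normalization lost AT4G09890, CAT2, PIFI, RPA70B and VNI2. JMJD5 lost its interaction without arrested replicate 2, without either 48 h array and under the value filter, TAA1, cwINV1 and AT4G34400 without either 48 h array, and CAT2 and PIFI without arrested replicate 1. In an alternative added after seeing the data, leaving out sterile plants gave 1547 calls between active tissues (43.4% higher), 624 interactions, and 173 within meristems, and RPA70B, BCB, JMJD5 and TAA1 were among 15 interactions lost. Leaving out the 48 h arrays, added likewise, gave 769 interactions. No paired analysis was possible because the array codes differ between the groups and the meristem arrays carry none.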
